A study of Homo sapiens with 12 samples.

Results

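The apolipoprotein L genes are *APOL1*, *APOL2*, *APOL3*, *APOL4*, *APOL5* and *APOL6*, and they were taken by symbol from the deposited expression table, where they account for 6 of 45416 genes. The table holds RNA-seq values of U251, an established human glioblastoma cell line, in 12 libraries that form 6 groups of 2. The cultures received a control siRNA (siNC) or siPDL1-1 or siPDL1-2, a pair of siRNAs against *PD-L1*, and 48 h later they were either left unstimulated or stimulated with IFNγ at 100 U/ml for 24 h. All 6 groups are therefore the same cell line after a transient transfection. Per the study's methods the libraries came from independent experiments, but the labels do not say which libraries of different groups belong to the same experiment. The limma p-values below rest on the spread between the 2 libraries of a group, estimated for each gene over all 6 groups together. That estimate is then drawn towards a trend over all genes tested, so they do not rest on the gene's own spread alone.

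Apolipoproteins L are membrane-active proteins, and their genes lie near each other as the product of gene duplications. APOL1 is the secreted member, which circulates on high-density lipoprotein, lyses African trypanosomes and has coding variants that raise the risk of kidney disease, while most other members stay inside the cell. Several members are known as interferon-stimulated genes. IFNγ and the type I interferons bind different receptors, and both act through JAK kinases and STAT factors.

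The values are the authors' normalized CPM, which are read counts scaled to a common library size. Each value was a whole multiple of the worth of 1 read, so reads per gene could be recovered, and the libraries held 17101069 to 55657393 reads. Of the 45416 genes, 17982 had enough reads for testing, and 5 of the 6 *APOL* genes were among them. *CD274*, the gene of PD-L1, served as the check of the siRNAs. In unstimulated cells its mean for siNC, siPDL1-1 and siPDL1-2 was 4.76, 2.70 and 3.51 CPM, and in stimulated cells 73.6, 63.8 and 36.3 CPM, each over 2 libraries. After IFNγ *CD274* was called lower for siPDL1-2 (log2 fold change -1.001, standard error 0.076, limma FDR = 4.25e-07) and not for siPDL1-1 (-0.20, limma FDR = 0.0498), whereas in unstimulated cells it was called lower for siPDL1-1 (-0.64, limma FDR = 1.76e-05) and not for siPDL1-2 (-0.35, limma FDR = 0.00183). The glial and mesenchymal markers *VIM* (3140 to 3970 CPM), *CD44*, *NES* and *SOX2* (108 to 213 CPM) were present in every library. The glial markers *GFAP* (1.92 to 7.25 CPM) and *S100B* (2.4 to 5.92 CPM) were low. The immune genes *PTPRC* and *CD3E* stayed at or below 0.176 CPM, with *CD14* the highest of 5 immune markers at up to 0.667 CPM. Markers of other cell types were not all absent. The hepatocyte marker *SERPINA1* was 11.7 to 18 CPM, and the endothelial markers *VWF* and *CDH5* reached 4.78 and 1.62 CPM. The hepatocyte marker *ALB*, the endothelial marker *PECAM1* and the epithelial markers *EPCAM* and *CDH1* stayed at or below 0.297 CPM, and *TTR* was 0.

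The 6 genes lie on chromosome 22 of GRCh38 between 35648446 and 36267530, a stretch of 619 kb, with 3 genes on each strand. In the order of the chromosome, *APOL6* (ENSG00000221963) runs from 35648446 to 35668404 and *APOL5* (ENSG00000128313) from 35717872 to 35729483, both on the plus strand. *APOL3* (ENSG00000128284, 36140330 to 36166177), *APOL4* (ENSG00000100336, 36189124 to 36204840) and *APOL2* (ENSG00000128335, 36226209 to 36239954) follow on the minus strand. *APOL1* (ENSG00000100342, 36253071 to 36267530) closes the cluster on the plus strand. None of the other genes in the table overlapped a member, which matters because the authors counted reads of both strands together. Stretches of 50 bases shared with another member made up 0.381% of the exon sequence of *APOL1*, 0.139% of *APOL2* and 0.138% of *APOL3*. Stretches shared with genes outside the family reached 5.08% for *APOL4* and 3.62% for *APOL1*, and how many reads of these genes had more than 1 possible place was not measured.

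*APOL1*, the secreted trypanolytic member, was close to 1 CPM in unstimulated cells. The siNC libraries gave 0.979 and 1.16 CPM, the siPDL1-1 libraries 1.62 and 1.60 CPM, and the siPDL1-2 libraries 1.49 and 1.53 CPM. After IFNγ the siNC libraries gave 140.1 and 140.8 CPM, the siPDL1-1 libraries 241 and 237 CPM, and the siPDL1-2 libraries 166 and 169.8 CPM. All IFNγ-stimulated libraries lay far above all unstimulated ones. Within each state the mean was highest with siPDL1-1 and lowest with siNC. Without IFNγ siPDL1-1 and siPDL1-2 lay close together (log2 difference 0.06, limma FDR = 0.522).

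*APOL2*, a cytoplasmic member without a signal peptide, was already well expressed before stimulation. The siNC cells held 34.6 and 35.5 CPM, the siPDL1-1 cells 39.5 and 42.4 CPM, and the siPDL1-2 cells 32.7 and 33.1 CPM. After IFNγ the siNC cells held 260.4 and 269 CPM, the siPDL1-1 cells 273 and 252 CPM, and the siPDL1-2 cells 204 and 207 CPM. The mean was lowest with siPDL1-2 in both states, by little against siNC without IFNγ (log2 difference -0.09, limma FDR = 0.180). The siNC and siPDL1-1 libraries overlapped after IFNγ.

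*APOL3*, a cytosolic protein that permeabilizes bacterial membranes in IFNγ-treated cells, was nearly silent without stimulation. The siNC libraries held 2 and 40 reads, or 0.0979 and 1.01 CPM, and the other unstimulated libraries lay between 0.447 and 0.863 CPM. After IFNγ the siNC libraries reached 69.9 and 70.8 CPM, those of siPDL1-1 70.3 and 65.1 CPM, and those of siPDL1-2 62.5 and 63.1 CPM. The unstimulated groups all overlapped, as did siNC and siPDL1-1 after IFNγ. The mean after IFNγ was lowest with siPDL1-2 (log2 difference from siNC -0.16, limma FDR = 0.682). The unstimulated siNC pair was the most unequal of all pairs of this gene.

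*APOL4*, a member whose function is little known, had low but measurable RNA in unstimulated cells. The siNC cells had 1.91 and 1.54 CPM, the siPDL1-1 cells 3.77 and 3.55 CPM, and the siPDL1-2 cells 2.80 and 2.72 CPM. After IFNγ these were 56.8 and 55.3 CPM for siNC, 71.5 and 75.1 CPM for siPDL1-1, and 68.2 and 68.3 CPM for siPDL1-2. The means of the 3 siRNA groups followed the same order in both states, siPDL1-1 above siPDL1-2 above siNC. After IFNγ siPDL1-1 and siPDL1-2 lay close together (log2 difference 0.10, limma FDR = 0.416).

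*APOL6*, which carries a BH3-like region and triggers cell death when overexpressed, had 18.0 and 18.4 CPM in unstimulated siNC cells, 14.0 and 12.5 CPM in siPDL1-1 cells, and 18.3 and 18.6 CPM in siPDL1-2 cells. After IFNγ it had 327 and 334 CPM in siNC cells, 491 and 488 CPM in siPDL1-1 cells, and 315 and 290.2 CPM in siPDL1-2 cells. The siPDL1-1 libraries thus changed places, from the lowest of the 3 groups without IFNγ to the highest with it. The siNC and siPDL1-2 groups overlapped before stimulation and lay close together after it (log2 difference -0.13, limma FDR = 0.0984).

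*APOL5* was hardly detected. It had 0 reads in 9 of 12 libraries, at most 2 reads in a library and 4 reads over all of them. A floor of 3 reads corresponds to 0.0562 to 0.176 CPM depending on the depth of the library, and this floor covers counting error only. It did not pass the filter on low counts and was not tested, so a response of *APOL5* below that level was not detectable at this depth.

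**Figure D1:**
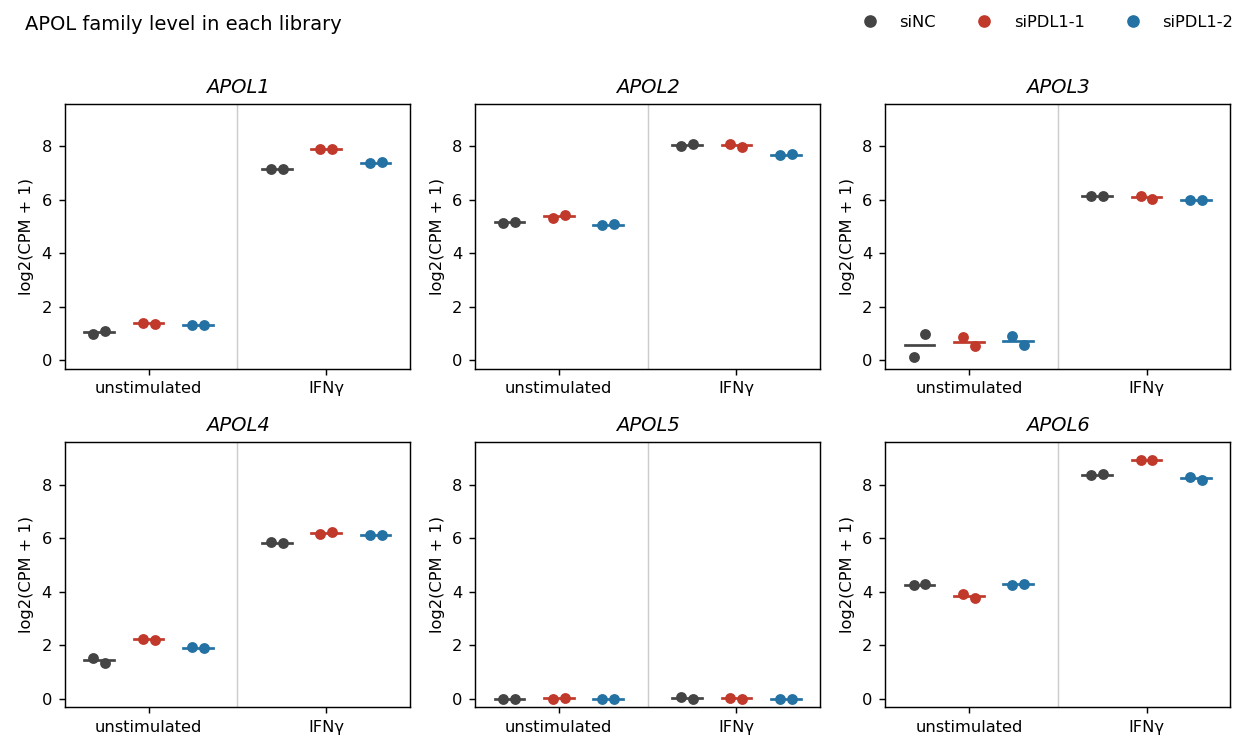
Level of each *APOL* gene in every library, as log2 of CPM plus 1, with points for libraries, horizontal lines for the means of log2 values of the 2 libraries of a group, and colours for siNC, siPDL1-1 and siPDL1-2. The IFNγ points of *APOL1*, *APOL2*, *APOL3*, *APOL4* and *APOL6* sit above every unstimulated point of the same gene, *APOL5* stays at or close to 0, and the siPDL1-1 points of *APOL6* are lowest on the left and highest on the right.

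To ask which members respond to IFNγ, stimulated and unstimulated cells were compared within each siRNA. *APOL1*, *APOL2*, *APOL3*, *APOL4* and *APOL6* all rose in cells with siNC, which makes 5 of 5 members tested, where 6.67% of all genes tested rose. A gene was called where limma, run on log2 of CPM plus 1, gave FDR < 0.01 with a fold change > 1.5, and the added 1 makes fold changes smaller for genes near 1 CPM. Of all genes called in cells with siNC 82.2% were higher, a share that was 68.6% when plain CPM was used.

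On the log2 scale of CPM plus 1, *APOL1* had the largest increase of the members. It went from 1.07 ± 0.131 to 140.5 ± 0.524 CPM with siNC (mean ± SD, n = 2), a ratio of 131, and its log2 fold change of 6.10 (standard error 0.066, limma FDR = 1.93e-18) was the sixth largest increase among all genes tested. *APOL3* followed at rank 9 with 5.59 (standard error 0.25, limma FDR = 3.17e-07). Its ratio of mean CPM was 127, and this ratio leans on the low unstimulated level, since the log2 fold change was 6.02 when the unstimulated siNC library with 40 reads was left out and 5.15 when the one with 2 reads was. With a pseudocount of 0.1 the log2 fold change of *APOL3* was 7.23 and stood above that of *APOL1*, so the order of these genes in siNC cells depends on the pseudocount.

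*APOL4* and *APOL6* gave intermediate responses. *APOL4* rose 32.5-fold in CPM (log2 fold change 4.39, standard error 0.078, limma FDR = 1.05e-15, rank 22) and *APOL6* rose 18.2-fold (4.11, standard error 0.056, limma FDR = 3.76e-17, rank 28). *APOL2*, which had the highest level before stimulation, had the smallest relative response, 7.55-fold in CPM (2.88, standard error 0.051, limma FDR = 8.24e-16, rank 72). The CPM of the 6 genes added up to 55.6 and 57.6 in unstimulated siNC libraries and to 854 and 869.9 after IFNγ.

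With siPDL1-1, 5 of 5 tested members rose, where 5.58% of all genes tested did. The log2 fold changes were 6.52 for *APOL1*, 5.39 for *APOL3*, 5.11 for *APOL6*, 3.99 for *APOL4* and 2.65 for *APOL2*. In CPM these were ratios of 148, 105, 36.9, 20.0 and 6.41. The order differed from that with siNC in that *APOL6* stood above *APOL4*.

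With siPDL1-2, again 5 of 5 tested members rose, where 3.62% of all genes tested did. The log2 fold changes were 6.07 for *APOL1*, 5.26 for *APOL3*, 4.20 for *APOL4*, 3.96 for *APOL6* and 2.61 for *APOL2*, the same order as with siNC. The ratios in CPM were 111, 93.0, 24.7, 16.4 and 6.25.

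Across the siRNAs, 2.43% of all genes tested rose in each of the 3 comparisons, and the 5 tested members were among them. For each of these members the lowest of 6 stimulated libraries was above the highest of 6 unstimulated ones, which held for 6.40% of all genes tested. The median log2 fold change of the tested members was 4.39 with siNC, 5.11 with siPDL1-1 and 4.20 with siPDL1-2, beside medians of all genes of 0.001, -0.016 and -0.015. In whole-culture RNA a change in the number of responding cells and a change in RNA per cell cannot be told apart.

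Neighbouring genes were examined in the same comparison. Among 21 other genes that lie within 250 kb of the cluster or inside it, 8 were tested, and limma called 0 of these 8 higher and 1 lower with IFNγ in cells with siNC. Of all 17982 genes tested, 6.67% were called higher there and 1460 were called in either direction. With 8 genes, a count of 0 higher is near that share. *RBFOX2*, an RNA splicing factor gene that lies in the gap between *APOL5* and *APOL3*, was 0.07 (limma FDR = 0.223). *MYH9*, which encodes non-muscle myosin IIA and is the next gene beyond *APOL1*, was -0.49 (limma FDR = 5.67e-07, below the fold change threshold). *MCM5*, *MB*, *TXN2*, *FOXRED2* and *EIF3D* lay between -0.47 and -0.09. *RASD2*, a small GTPase gene upstream of *APOL6*, fell by 0.85 on the log2 scale (limma FDR = 2.48e-05).

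**Figure D2:**
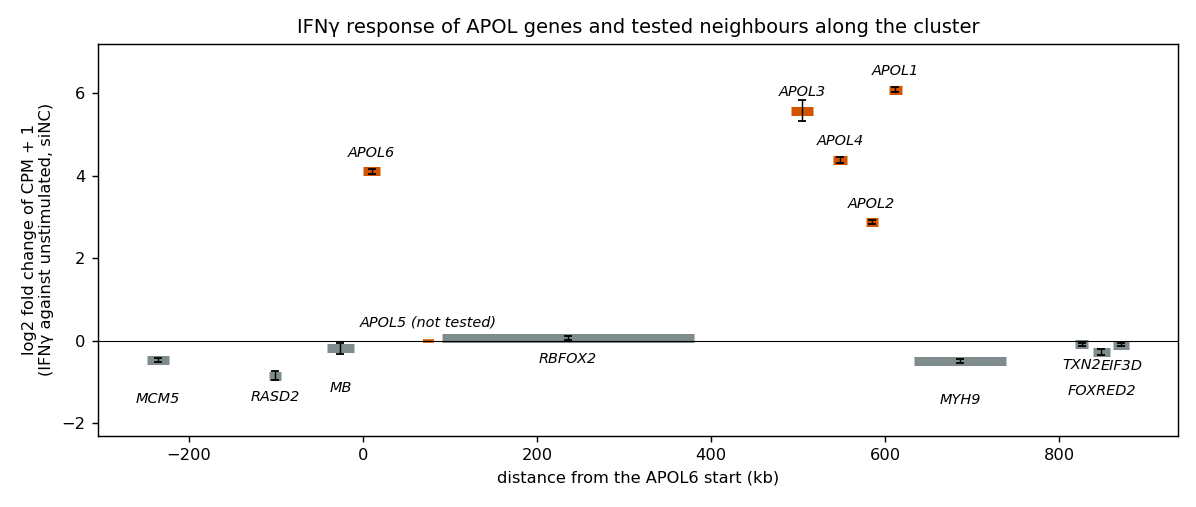
Log2 fold change of CPM plus 1 with IFNγ in cells with siNC (vertical axis; bars are standard errors) against the distance from the *APOL6* start in kb, where the width of each block is the length of the gene. The 5 tested *APOL* genes lie between 2.88 and 6.10, the 8 tested neighbours lie between -0.85 and 0.07, and *APOL5*, which was not tested, is drawn at 0 only to show its place.

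Levels of different genes can be set side by side only per length. In CPM per kb of the canonical GENCODE transcript, siNC cells without stimulation held 14.4 for *APOL2*, 1.81 for *APOL6*, 0.563 for *APOL4*, 0.383 for *APOL1* and 0.272 for *APOL3*. After IFNγ these per-kb levels were 109 for *APOL2*, 50.3 for *APOL1*, 34.5 for *APOL3*, 32.9 for *APOL6* and 18.3 for *APOL4*. *APOL2* was the highest member in both states although its fold change was the smallest. With the length of all merged exons in place of the canonical transcript, the per-kb level of *APOL3* after IFNγ was 11.9, the lowest of the tested members, with merged exons of 5905 bases against 2041 bases for the canonical transcript, so its place in the order depends on the length that is used.

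To ask whether the siRNAs against *PD-L1* alter the family, each was compared with siNC. *CD274* itself was called lower for siPDL1-1 only without IFNγ and for siPDL1-2 only after it. All comparisons of a given state share the same siNC libraries. In unstimulated cells with siPDL1-1, *APOL4* rose to 3.66 ± 0.153 CPM from 1.73 ± 0.259 CPM (mean ± SD, n = 2), a ratio of 2.12 (log2 fold change 0.78, standard error 0.078, limma FDR = 3.58e-06). It was 1 of 5 tested members called in either direction, where 4.00% of all genes tested were called. The other differences were under the fold change threshold or did not pass the test. They were 0.34 for *APOL1* (limma FDR = 0.00127), 0.22 for *APOL2* (0.00437), 0.14 for *APOL3* (0.748) and -0.43 for *APOL6* (3.60e-05). The value of *APOL3* turned on 1 library, since it was -0.30 without the unstimulated siNC library with 2 reads and 0.57 without the one with 40.

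In unstimulated cells with siPDL1-2, limma called 0 of 5 tested members, where 6.17% of all genes tested were called. Of these 5, 2 had an unadjusted p under 0.05, as did 48.2% of all genes tested, and edgeR's quasi-likelihood test and DESeq2 called 1 each, which was *APOL4*. *APOL4* was 2.76 ± 0.0617 CPM (mean ± SD, n = 2), with a log2 difference from siNC of 0.47 on the CPM plus 1 scale (limma FDR = 2.45e-04), 0.70 in edgeR (FDR = 8.07e-04) and 0.69 in DESeq2 (FDR = 0.00130). The difference of *APOL1* was 0.28 (limma FDR = 0.00364), and those of *APOL2*, *APOL3* and *APOL6* were -0.09, 0.16 and 0.02. The value for *APOL3* turned on 1 library, since it was 0.60 and called without the unstimulated siNC library that held 40 reads and -0.27 without the one that held 2.

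After IFNγ, *APOL1* was higher with siPDL1-1 than with siNC. It reached 239 ± 3.01 CPM against 140.5 ± 0.524 CPM (mean ± SD, n = 2), a ratio of 1.70 (log2 fold change 0.76, standard error 0.066, limma FDR = 4.58e-07). It was 1 of 5 tested members called in either direction, where 5.47% of all genes tested were called. *APOL6* was just under the fold change threshold and not called, with 489.5 ± 2.64 against 331 ± 4.96 CPM (mean ± SD, n = 2), a ratio of 1.48 and a log2 difference of 0.56 (limma FDR = 1.81e-06). *APOL4* had a log2 difference of 0.38 (limma FDR = 0.00151). *APOL2* and *APOL3* had differences of -0.01 and -0.06 with FDRs of 0.873 and 0.895. The standard error of *APOL3* was 0.25 here as without IFNγ, since it includes the spread of the unequal unstimulated siNC pair.

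After IFNγ with siPDL1-2, limma called 0 of 5 tested members, where 3.13% of all genes tested were called. An unadjusted p under 0.05 was found for 4 of the 5, beside 40.8% of all genes tested. edgeR and DESeq2 also called 0. The log2 differences from siNC were -0.36 for *APOL2* (limma FDR = 9.90e-05), 0.25 for *APOL1* (0.00893), 0.28 for *APOL4* (0.0146), -0.13 for *APOL6* (0.0984) and -0.16 for *APOL3* (0.682). *APOL2* was 205.5 ± 2.06 CPM with siPDL1-2 and 264.5 ± 5.87 CPM with siNC (mean ± SD, n = 2).

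**Figure D3:**
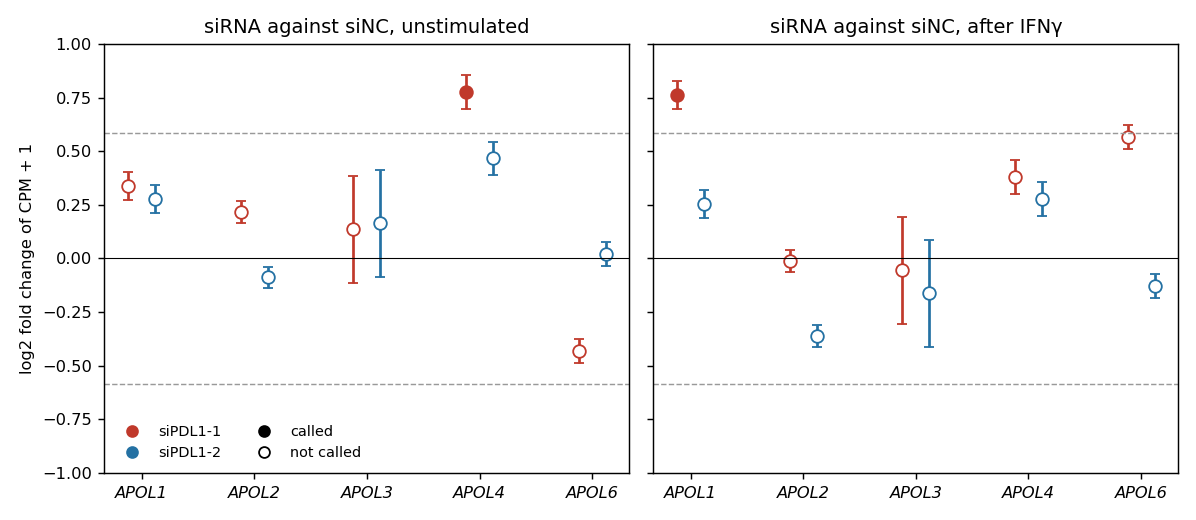
Log2 fold change of CPM plus 1 of each tested *APOL* gene with siPDL1-1 (red) and siPDL1-2 (blue) against siNC, in unstimulated cells (left) and after IFNγ (right), with bars for standard errors and dashed lines at the fold change threshold of 1.5. The filled points, *APOL4* at 0.78 on the left and *APOL1* at 0.76 on the right, passed both thresholds, and *APOL6* with siPDL1-1 moves from -0.43 to 0.56.

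The siRNAs were also compared with each other. Without stimulation limma called 0 of 5 tested members, where 4.35% of all genes tested were called, and 3 members had an unadjusted p under 0.05, as did 44.7% of all genes tested. edgeR and DESeq2 also called 0. These 3 were *APOL6* at -0.45, *APOL2* at 0.31 and *APOL4* at 0.31, as siPDL1-1 minus siPDL1-2 on the log2 scale. After IFNγ *APOL6* was higher with siPDL1-1, at 489.5 ± 2.64 against 303 ± 17.9 CPM (mean ± SD, n = 2), a ratio of 1.62 (log2 fold change 0.69, standard error 0.056, limma FDR = 4.94e-07). It was 1 of 5 tested members called, where 2.23% of all genes tested were. *APOL1* (0.51, limma FDR = 6.61e-05) and *APOL2* (0.35, limma FDR = 1.80e-04) were below the fold change threshold.

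Whether the IFNγ response itself differed was tested as the difference between the response with an siRNA and the response with siNC. For siPDL1-1, the response of *APOL6* was larger by 1.00 on the log2 scale (standard error 0.079, limma FDR = 1.03e-06), from 4.11 with siNC to 5.11. It was 1 of 5 tested members called in either direction, where 0.968% of all genes tested were called. This difference joins a lower start, 13.3 ± 1.07 against 18.2 ± 0.250 CPM, and a higher end, 489.5 ± 2.64 against 331 ± 4.96 CPM (mean ± SD, n = 2). *APOL1* had a difference of 0.43 (limma FDR = 0.0191), *APOL4* of -0.40 (0.0695), *APOL2* of -0.23 (0.110) and *APOL3* of -0.19 (0.858), none of which passed. The value of *APOL3* ran from -0.63 to 0.25 as 1 or the other unstimulated siNC library was left out. For siPDL1-2 limma called 0 of 5 tested members, where 7.62% of all genes tested were called, and 1 member, *APOL2*, had an unadjusted p under 0.05, as did 39.6% of all genes tested. Its difference was -0.27 (limma FDR = 0.00998), and edgeR and DESeq2 also called 0.

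The pathway around the family was described with gene lists. Of 18 receptor, kinase, STAT, IRF and SOCS genes, 17 were tested and 8 rose with IFNγ in cells with siNC. Of all genes tested 6.67% rose in that comparison. *IRF1*, a transcription factor gene, went from 17.9 to 540.0 CPM (log2 fold change 4.85). *JAK2*, a receptor-bound kinase gene, went from 14.7 to 63.2 CPM (2.03), and *SOCS1*, a gene of a feedback inhibitor of JAK kinases, from 0.421 to 7.66 CPM (2.61). In a list of 20 IFNγ-response genes such as *GBP1*, *IDO1* and *PSMB9*, 20 of 20 rose with siNC, with a median log2 fold change of 5.10. The *APOL* members with siNC ran from 2.88 to 6.10, with a median of 4.39.

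The lists separated the siRNAs. After IFNγ, 19 of 20 genes of a type I interferon-response list rose with siPDL1-1 against siNC, with a median log2 fold change of 3.28, beside a median of -0.005 for all genes. Of all genes tested 5.47% were called in either direction there. *ISG15*, a ubiquitin-like modifier, was 572 CPM with siPDL1-1, 79.9 CPM with siNC and 109 CPM with siPDL1-2, and *MX1* was the gene of the list that did not rise (4.16 against 4.41 CPM). In the same comparison 2 of 20 IFNγ-response genes rose, *TAP2* (0.88) and *SERPING1* (1.19), and 2 fell, *IDO1* (-1.10) and *CXCL11*, with a median of -0.12. With siPDL1-2 against siNC after IFNγ, 0 of these 20 genes rose and 6 fell, where 3.13% of all genes tested were called in either direction. *IDO1* was -1.09 and *CXCL11* -1.91 there, and the median was -0.21. With siPDL1-1 against siNC after IFNγ the members ran from -0.06 to 0.76, with a median of 0.38. They lay inside the range of the IFNγ-response list, which ran from -1.15 for *CXCL11* to 1.19 for *SERPING1*. The range of the type I list, -0.07 for *MX1* to 4.79 for *MX2*, held them too. Its next lowest gene after *MX1* was *IFIH1*, at 1.86. No difference between the members and a list was tested.

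Interferon genes were listed as well. Of 8 such genes 3 passed the filter on low counts, and these 3 were called higher with siPDL1-1 against siNC after IFNγ. Of all genes tested 5.47% were called in either direction there. *IFNL1* and *IFNB1*, among these 3, had at most 59 and 26 reads in a library. They passed the filter through the stimulated siPDL1-1 libraries, where they were highest, so their values are a description only. After IFNγ, *IFNL1* was 1.68 CPM with siPDL1-1, 0.0104 CPM with siNC and 0 CPM with siPDL1-2. *IFNB1*, the gene of interferon beta, was 0.867, 0.0395 and 0.0293 CPM in the same order. *IFNE*, which was not tested, went the other way, at 0.0567 CPM with siPDL1-1 and 0.181 CPM with siNC. *STAT2* (log2 fold change 1.59), *IRF9* (0.65), *JAK2* (0.67) and *SOCS1* (1.67) rose with siPDL1-1 against siNC after IFNγ and *IRF1* fell (-0.63). Without stimulation, 12 of 20 genes of the type I list rose with siPDL1-1 (median 0.73), where 4.00% of all genes tested were called in either direction. With siPDL1-2 after IFNγ, 2 of 20 genes of the type I list rose, *IFI6* and *IFI27*, with a median of 0.15. Of all genes tested 3.13% were called in either direction there. After IFNγ *IFNL1*, *IFNB1* and 19 of 20 genes of the type I list were higher with siPDL1-1 in the same libraries in which *APOL1*, *APOL4* and *APOL6* had values above siNC, and their part in those differences was not tested. Without stimulation *IFNL1* and *IFNB1* had 0 CPM in both siNC and siPDL1-1. In that comparison *APOL4* was called higher with siPDL1-1 (0.78). The members not called were *APOL1* (0.34), *APOL2* (0.22), *APOL3* (0.14) and *APOL6* (-0.43). How these values relate to the type I list was not tested.

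**Figure D4:**
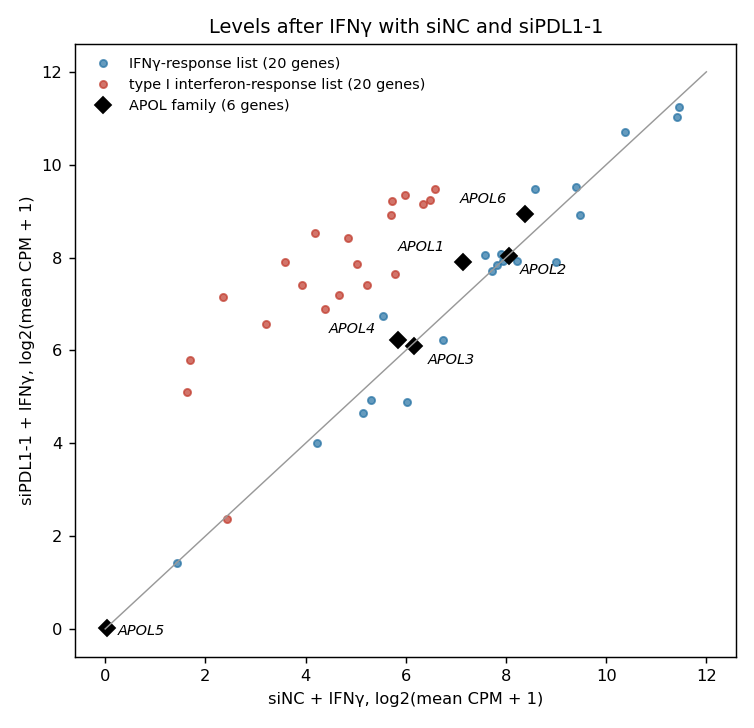
Mean level after IFNγ with siPDL1-1 (vertical axis) against siNC (horizontal axis), each as log2 of mean CPM plus 1, for the 6 *APOL* genes, 20 IFNγ-response genes and 20 type I interferon-response genes, with a line of equal levels. *APOL2*, *APOL3* and *APOL5* lie at the line, *APOL1*, *APOL4* and *APOL6* a little above it, and 19 of 20 type I genes far above it.

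Genes of known partners of the family were followed too. *HPR* and *APOA1*, which join APOL1 in the trypanosome lytic factor, and *HP* did not pass the filter on low counts, with group means of at most 0.221 CPM. *PI4KB* and *NCS1*, which encode a Golgi lipid kinase and its calcium-sensing activator, were 103 and 52.2 CPM in unstimulated siNC cells and 94.8 and 44.9 CPM after IFNγ (limma FDR = 0.0439 and 0.00621, below the fold change threshold). *VAMP8*, a vesicle fusion protein gene, was 1.11 and 1.01 CPM.

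The genes whose pattern over the 12 libraries was most like that of each member were sought among 14277 other genes whose mean level was 1 CPM or more. The measure was the root mean square difference of log2 of CPM plus 1 after each gene was centred on its own mean, so a small value means that both genes rose by nearly the same amount in the same libraries. All members are compared over the same 6 stimulated and 6 unstimulated libraries, so any strongly induced gene scores well on this measure, which is a description only. *APOL1* was closest to *PLAAT4* (0.209), a phospholipid-modifying enzyme gene, then to *GBP1* (0.340), *XAF1* (0.470) and *APOL3* (0.509). *APOL3* was closest to *PSMB9* (0.218), an immunoproteasome subunit gene, and to *GBP5*, *HLA-DRA*, *CIITA* and *CXCL9* (0.300 to 0.418). *APOL2* was closest to *PSMB8* (0.145), *IFI30* (0.149) and *HLA-F* (0.167), which belong to antigen processing and presentation. *APOL4* was close to *IL18BP* (0.220), and *APOL6* to *BATF2* (0.276) and *IL18BP* (0.292).

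Within the family the pair most alike by this measure was *APOL4* and *APOL6* (0.410), followed by *APOL1* and *APOL3* (0.509). The pair least alike was *APOL1* and *APOL2* (1.78), although these genes are neighbours on the chromosome and are read in opposite directions.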

How the data were processed

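The 12 libraries were grouped from the sample labels. Per the methods, the authors trimmed the paired-end reads, aligned them to the Ensembl GRCh38 genome with CLC Genomics Workbench, counted both strands together, ignored broken pairs, and normalized the counts there. The signal values deposited by the authors are these normalized CPM. All values (100%) were whole multiples of 1 read within 0.01 read. The labels and the paper differ on the extraction kit and the sequencer.

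Genes were filtered with filterByExpr (minimum count 10, minimum total count 15) on the recovered reads, and log2 of CPM plus 1 was fitted with limma (trend, robust) over 6 groups, with Benjamini-Hochberg adjustment over 17982 genes. Calls needed a fold change > 1.5 at FDR < 0.01. Named genes are the 6 members, *CD274*, genes of lists written from general knowledge, neighbours within 250 kb, and the 5 genes most like each member, some left unnamed. The result for 1 gene is not reported here. The members and lists were chosen with earlier results of these data known. The alternatives were edgeR's quasi-likelihood test and DESeq2's Wald test on the recovered reads, plain CPM, DESeq2's size factors, a pseudocount of 0.1, no filter, a replicate block, no fold change threshold, the 6 libraries of a stimulation state, and leaving out each of the 12 libraries. The test was tried on simulated data. Mean chi-square between replicates was 1.85 to 7.23 per gene, so no pair was a copy.

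Transcript lengths came from GENCODE v44, whose coordinates of the members equal those of the table except for a 1-base shift at *APOL3*. Software was Python 3.11.15 with matplotlib 3.10.9, pandas 2.3.3 and numpy 2.4.6, and R 4.3.3 with DESeq2 1.42.0, edgeR 4.0.16 and limma 3.58.1.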

Additional observations from a re-analysis of the deposited data

Results flagged for a closer look

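*APOL6* was called in the test of the IFNγ response with siPDL1-1 against that with siNC. It was also called between siPDL1-1 and siPDL1-2 after IFNγ, which compares levels. No test compared its IFNγ responses with siPDL1-1 and siPDL1-2. Its response to IFNγ was larger with siPDL1-1 than with siNC by 0.996 on the log2 scale (standard error 0.079, limma FDR = 1.03e-06), and the siPDL1-1 libraries were the lowest without IFNγ and the highest with it, in 2 of 2 libraries each time. When each library was left out in turn this difference ran from 0.92 to 1.07. After IFNγ its level with siPDL1-1 was above that with siPDL1-2 by 0.692 on the log2 scale (standard error 0.056, limma FDR = 4.94e-07), and by 0.63 to 0.75 when each library was left out.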

How the results depend on the processing

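The rise of *APOL1*, *APOL2*, *APOL3*, *APOL4* and *APOL6* with IFNγ was called for each siRNA under all 20 alternatives, with log2 fold changes from 2.55 (*APOL2*, siPDL1-2) to 7.23 (*APOL3*, siNC, pseudocount 0.1, and *APOL1*, siPDL1-1, edgeR at 7.22). The calls of *APOL4* and *APOL1* with siPDL1-1 against siNC and of *APOL6* between the siRNAs and in the difference of responses also stayed, with log2 values of 0.68 to 1.10, 0.75 to 0.78, 0.63 to 0.75 and 0.92 to 1.07. No value called in the main fit changed its direction. *APOL3* for siPDL1-2 against siNC in unstimulated cells, not called in the main fit, ran from -0.27 to 0.60 when each library was left out.

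Without a fold change threshold, the tested members passing FDR < 0.01 numbered 4 in place of 1 for siPDL1-1 against siNC in unstimulated cells and 3 in place of 1 after IFNγ. For siPDL1-2 against siNC they numbered 2 in place of 0 in both states. For siPDL1-1 against siPDL1-2 they numbered 3 in place of 0 without IFNγ and 3 in place of 1 with it, and for the difference of responses with siPDL1-2 they numbered 1 in place of 0. For siPDL1-2 against siNC in unstimulated cells, edgeR, DESeq2 and the pseudocount of 0.1 called 1 member, *APOL4*. Leaving out each library gave 0 to 1 there, and the call was *APOL3* without the unstimulated siNC library with 40 reads. Over all genes, calls without a fold change threshold were 4901, 4122 and 3080 for IFNγ with siNC, siPDL1-1 and siPDL1-2 (1460, 1236 and 947 with it), 3379 and 5107 for siPDL1-1 and siPDL1-2 in unstimulated cells (720 and 1110), 4277 and 3300 after IFNγ (984 and 562), 4338 and 1882 between the siRNAs (783 and 401), and 293 and 3067 for the differences of responses (174 and 1370, the latter 888 without the second siPDL1-2 library with IFNγ). The cause of these moves beyond the looser rule was not tested.

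Replicate numbers did not show pairing, with correlations of the replicate deviations from -0.132 to 0.193 (median -0.003) over 15 pairs of groups. The fit with the replicate block changed no count of members, which stayed at 5 for IFNγ in each siRNA group, at 1 for siPDL1-1 against siNC in both states, and at 0 for siPDL1-2. Depth limits *APOL5*, which could not be tested. *APOL3* was low and uneven in unstimulated siNC cells, with 2 and 40 reads in libraries of 19945619 and 38704685 reads. These are 0.0979 and 1.01 CPM, and the cause of this gap was not tested.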

Other observations

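Among 19 genes of other apolipoproteins and of proteins named after them, 7 passed the filter on low counts. *CLU*, the gene of the secreted chaperone clusterin, was the most abundant in CPM, with group means from 173 to 190.0 CPM. *APOOL*, the gene of a mitochondrial inner membrane protein, rose with IFNγ in cells with siNC, from 26.4 to 40.5 CPM (log2 fold change 0.60, limma FDR = 1.94e-05), and with siPDL1-2 against siNC in unstimulated cells, to 43.1 CPM (0.69, limma FDR = 7.05e-06). With IFNγ it was not called in cells with siPDL1-1 (0.43, limma FDR = 4.39e-04) or siPDL1-2 (-0.06, limma FDR = 0.584), and its response with siPDL1-2 was lower than with siNC by a called difference (-0.66, limma FDR = 5.04e-04). *APOE*, a lipid transport protein gene, was below 1 CPM in every group and was higher with siPDL1-1 than with siNC after IFNγ, at 0.943 against 0.284 CPM (0.60, limma FDR = 0.00714). The other 12 genes did not pass the filter, and the highest group mean among them was 0.248 CPM, for *APOD*.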
